A study of Rattus norvegicus with 26 samples.

Results

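The rat mitochondrial genome was represented by 35 of the 32552 features counted in each library, chosen as every row placed on chromosome MT. The 13 features over 200 nt long are called long genes 1 to 13 here and the other 22 short features 1 to 22, each numbered in order along the genome. RNA sequencing was carried out on rat hepatocytes before transplantation (16 libraries) and on laser-captured liver tissue after it (10 libraries), in a study of how fetal hepatocytes keep their expression program after transfer to an adult liver. Before transplantation there were 4 libraries each of adult hepatocytes, of immunopurified fetal hepatocytes labelled LAP+, and of the fetal fractions labelled LAP+/OC2+ and LAP+/OC2-. After transplantation there were 5 libraries of colonies formed by fetal cells and 5 of adult host liver next to such colonies, with a colony and a host library under each of 5 replicate numbers (242, 243, 246, 248 and 249). A shared number is taken here as a shared animal, since the series describes the host tissue as lying around the colonies, though no label names an animal. The labels call the libraries biological replicates and do not spell out LAP or OC2. No strain, age or sex is given in the sources used here, nor how regions were chosen for capture.

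The mitochondrial genome is a small circle that mammalian cells carry in many copies. It encodes the RNAs of the mitochondrial ribosome, a set of tRNAs, and core subunits of respiratory complexes I, III and IV and of the ATP synthase. Hepatocytes are rich in mitochondria, which carry out fatty acid oxidation and the first steps of the urea cycle. Both strands are transcribed into long precursors that span many genes, and most mRNAs are released when the tRNAs between them are cut out. Some protein genes overlap and are translated from a shared mRNA, and a single protein gene, for a subunit of complex I, lies on the opposite strand to the rest. An RNA copied from 1 strand through a gene of the other is antisense to it.

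The long genes were 204 to 1830 nt and the short features 60 to 75 nt long. On either side of the length limit stood long gene 5 with 204 nt and short feature 3 with 75 nt. In deposited coordinates, with no genome build given in the sources used here, the first long genes covered MT 2740 to 3694 (gene 1), 3904 to 4942 (gene 2), 5323 to 6867 (gene 3), 7006 to 7689 (gene 4), 7758 to 7961 (gene 5), 7919 to 8599 (gene 6) and 8599 to 9382 (gene 7). The others covered 9451 to 9798 (gene 8), 9870 to 10166 (gene 9), 10160 to 11537 (gene 10), 11736 to 13565 (gene 11), 13543 to 14061 (gene 12) and 14136 to 15278 (gene 13). Only long gene 12 was annotated on the minus strand, with 8 of the 22 short features. The stretches 68 to 1025 and 1094 to 2664 held no feature and were not analysed here. The files carry identifiers without names, and 0 of the 32552 identifiers matched the reference table, so no feature is called by a gene name or a tRNA by its amino acid. For the pair with the main results, long gene 3 is ENSRNOG00000034234 and long gene 13 is ENSRNOG00000031766.

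Neighbouring features shared bases in 7 places. Long genes 5 and 6 shared 43 nt and long genes 11 and 12, on opposite strands, shared 23 nt. No strand setting of the counting is given in the sources used here, so reads of overlapping or opposite features cannot be told apart. Every one of the 35 features was counted in at least 1 library, and 26 of them in all 26 libraries. A filter on low counts left all 13 long genes with 17 short features before transplantation and with 18 after it. Short features 15, 17, 18 and 19 did not pass it at either stage and summed to 2, 22, 1 and 3 counts over all libraries. Short feature 7 passed after transplantation only. Libraries held 7871347 to 16874438 counts in all, of which 60677 to 7048029 were mitochondrial. The 4 LAP+/OC2+ libraries were the smallest before transplantation, with totals of 7871347 to 8965763 against 14163256 to 16874438 in the other 12.

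Sorted and adult cells went into one library kit for purified RNA and captured tissue into another for very small inputs of total RNA. Levels were therefore not compared between the stages. In bulk samples, fewer cells of a type and less RNA per cell cannot be told apart. Because no identifier could be named, hepatocyte markers could not be used to check the labelled cell types. Levels are given as CPM (counts-per-million) of a library size scaled by TMM, a scaling in which the values of a library can sum to more than its name says where a few features dominate.

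Mitochondrial RNA took up most of the counts in 3 of the 4 LAP+/OC2+ libraries, a lower share in the fourth, and far less in the libraries of the other groups. The 35 features held 78.6%, 73.7%, 57.6% and 38.9% of all counts in LAP+/OC2+ libraries 1 to 4, a mean of 62.2% ± 17.9 (SD, n = 4). In adult libraries 1 to 4 they held 7.62%, 7.66%, 10.3% and 5.31%, a mean of 7.73% ± 2.05 (SD, n = 4). The lowest LAP+/OC2+ library stood above the highest of the other 12 libraries before transplantation, and library 4 stood well below the other 3 of its group. The shares were 6.42%, 4.11%, 4.93% and 4.69% in LAP+ libraries 1 to 4 and 4.73%, 5.92%, 4.27% and 4.83% in LAP+/OC2- libraries 1, 3, 4 and 5. These 2 fetal groups overlapped fully, and each held 1 library above the lowest adult one. In the LAP+/OC2+ libraries, which also had the lowest totals of that stage, 1917734 to 5045098 counts were left for nuclear features. The part of library size in the difference was not tested.

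**Figure D1:**
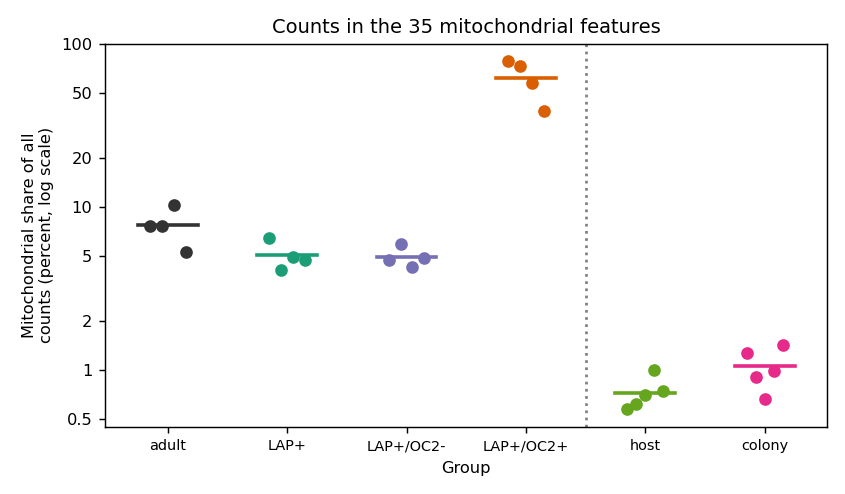
Share of all counts in the 35 mitochondrial features (percent, log scale) for each library by group, with bars at the group means and a dotted line between the stages, which were not compared. The 4 LAP+/OC2+ libraries lie between 38.9% and 78.6%, above every other library.

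By a two-sided exact permutation test of 4 libraries against 4, the LAP+/OC2+ share differed from that of each of the other 3 groups at p = 0.0286, the smallest p these group sizes allow. In all, 28 such tests were made, on 4 summary values in 7 comparisons, and after Benjamini-Hochberg adjustment that p became 0.0889, so none passed 0.05. The LAP+ share minus the adult share was -2.69 percentage points, with an exact permutation p of 0.0571 (adjusted 0.123).

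Across single features, the difference between LAP+/OC2+ and LAP+/OC2- extended to every mitochondrial feature tested. In edgeR's quasi-likelihood test with adjustment over all 13818 features tested, 13 of 13 long genes and 17 of 17 tested short features were higher in LAP+/OC2+. Of all features tested, 30.8% were called higher in that comparison. Some short features passed the low-count filter only through LAP+/OC2+, where they were high, so the filter partly set the count of short features called. Short features 4, 11, 13 and 16, for example, summed to 87, 73, 53 and 46 counts in LAP+/OC2+. In each other group before transplantation they summed to 10 counts or fewer. The long genes had a median log2 difference of 4.90 (from 4.44 to 5.62) and the short features one of 5.18 (from 4.09 to 6.27), against -0.18 over all features. Among the 13788 nuclear features tested, 319 (2.31%) had a log2 difference at or above that of the lowest mitochondrial feature.

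Long gene 3 had the highest level per length before transplantation, and reached 628890, 528815, 251731 and 125060 CPM in LAP+/OC2+ libraries 1 to 4. In LAP+/OC2- libraries 1, 3, 4 and 5 its level was 12784, 16830, 13985 and 15130 CPM. The groups did not overlap, and on this scale the first 2 LAP+/OC2+ libraries were more than 2 times as high as the others. The size of that gap depends on the scaling, since TMM factors ran from 0.433 to 1.05 in LAP+/OC2+ libraries. Its log2 difference in the edgeR fit was 4.71 (SE 0.46, adjusted p = 1.6e-07), a fold of 26.1. Long gene 9, of 297 nt, differed most among them, by 5.62 (SE 0.37, adjusted p = 2.2e-09), and long gene 8 least, by 4.44 (SE 0.41, adjusted p = 7.3e-08). The genes at both ends of this range, long genes 8 and 9, are neighbouring long genes.

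LAP+/OC2+ was also set against LAP+ and against adult cells, comparisons that share the LAP+/OC2+ libraries and the low-count filter with the one above. Against LAP+ all 30 tested features were higher by edgeR, where 32.0% of all features were, with a median log2 difference of 4.94 for the long genes and 5.11 for the short features. Against adult cells all 30 were higher too, where 38.9% of all features were, with medians of 3.78 and 4.78. The mitochondrial features stood out less there. Of the 13788 nuclear features, 2518 (18.3%) lay at or above the lowest mitochondrial feature against adult cells, and 210 (1.52%) did against LAP+. At or above the median mitochondrial feature there were 989 against adult cells.

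Without TMM scaling the median log2 difference over all features between LAP+/OC2+ and LAP+/OC2- moved from -0.18 to -1.04, and that of long gene 3 from 4.71 to 3.52. All 30 features were still called higher by edgeR under that scaling, where 1764 of 13818 features were higher and 7596 lower, and under scaling on nuclear features alone, where 4564 were higher.

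**Figure D2:**
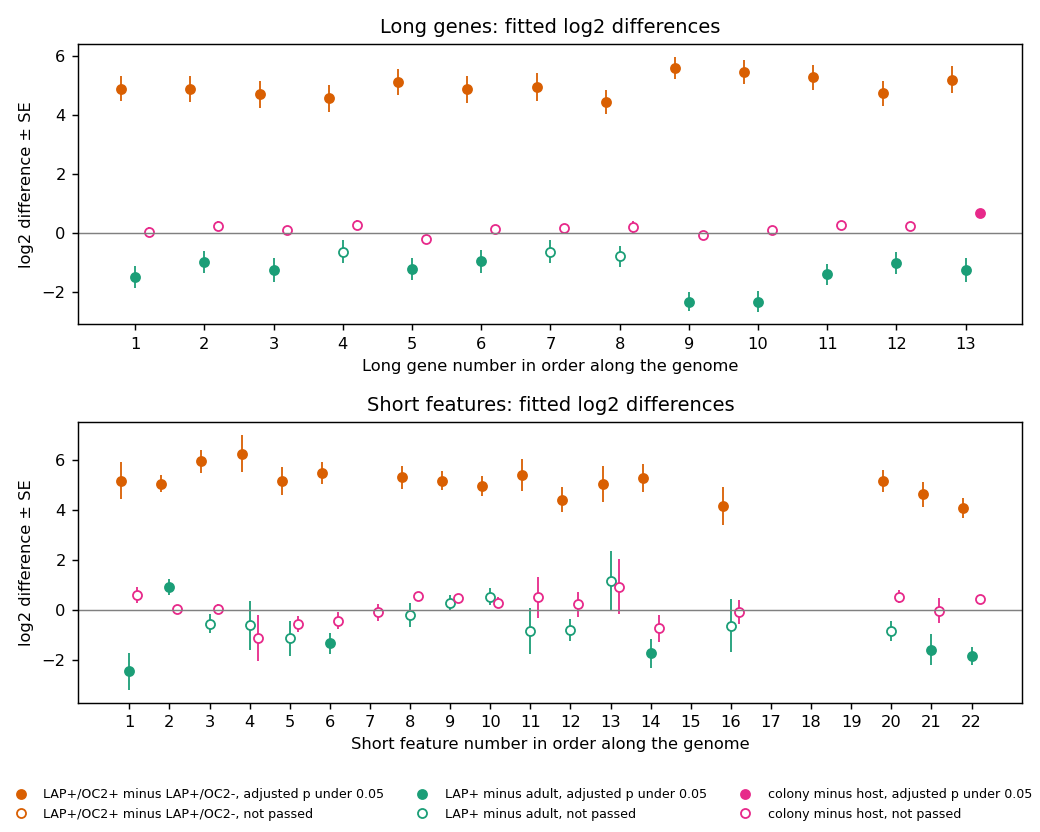
Fitted log2 differences with SE for each tested long gene (upper panel) and short feature (lower panel) in 3 comparisons, filled where the adjusted p is under 0.05. All LAP+/OC2+ minus LAP+/OC2- values lie between 4.09 and 6.27, LAP+ minus adult values lie mostly below 0, and the one filled colony minus host point is long gene 13 at 0.68.

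Between the LAP+/OC2- and LAP+ fetal cells no mitochondrial feature differed by edgeR (0 of 30 called, where 0.391% of all features were called in either direction). None of the 30 had an unadjusted p under 0.05, where 915 of all 13818 features had. DESeq2 also called 0, where it called 208 features over the whole table. The log2 differences of the long genes ran from -0.19 to 0.06 and those of the short features from -0.54 to 1.19.

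LAP+ fetal cells held less mitochondrial RNA than adult cells for most long genes, on the scale of TMM-scaled counts. By edgeR 10 of 13 long genes were lower in LAP+, where 28.5% of all features were lower, and 0 were higher, where 31.7% of all were. Their median log2 difference was -1.22, against 0.06 over all features tested. Long genes 4, 7 and 8 did not pass the test, with log2 differences of -0.63 (adjusted p = 0.18), -0.63 (adjusted p = 0.18) and -0.78 (adjusted p = 0.068). Long genes 9 and 10 fell most, by 2.32 each on the log2 scale (SE 0.32, adjusted p = 1.0e-05, and SE 0.35, adjusted p = 2.2e-05). These genes overlap by 7 nt.

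Long gene 10 stood at 634, 495, 943 and 535 CPM in adult libraries 1 to 4 and at 168, 110, 134 and 109 CPM in LAP+ libraries 1 to 4. The groups were well apart, and adult library 3, which had the highest mitochondrial share of its group, was also highest here. Long gene 3 stood at 32663, 33638, 47818 and 23783 CPM in adult libraries 1 to 4 and at 19556, 10743, 14834 and 13254 CPM in LAP+ libraries 1 to 4. Its groups did not overlap either, though the gap was narrower, and its log2 difference was -1.24 (SE 0.40, edgeR adjusted p = 0.014). The call for long gene 6 (log2 difference -0.96, edgeR adjusted p = 0.049) was lost under 10 of 16 alternatives, that for long gene 2 (-0.97, adjusted p = 0.034) under 6 and that for long gene 12 (-1.02, adjusted p = 0.026) under 4. With the replicate number as a block the adjusted p of long gene 6 was 0.070.

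LAP+/OC2- cells set against the same adult libraries gave 9 of 13 long genes lower, where 28.4% of all features were lower, and 0 higher, where 30.9% were. Long genes 4, 6, 7 and 8 did not pass there. Long genes 9 and 10 again had the lowest log2 differences by edgeR, at -2.37 (adjusted p = 8.4e-06) and -2.46 (adjusted p = 1.2e-05).

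These fetal to adult differences depend on the scaling. TMM factors ran from 0.935 to 0.965 in adult libraries, from 1.23 to 1.46 in LAP+ libraries and from 1.17 to 1.39 in LAP+/OC2- libraries. Without TMM scaling the median over all features between LAP+ and adult cells moved from 0.06 to 0.53, the value of long gene 3 from -1.24 to -0.79 and that of long gene 7 from -0.63 to -0.18.

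Within the mitochondrial counts, long gene 3 made up the largest part in every library before transplantation, and its part differed between adult, fetal and LAP+/OC2+ cells. It held 40.4%, 41.6%, 43.3% and 43.2% of mitochondrial counts in adult libraries 1 to 4. In LAP+ libraries 1 to 4 it held 37.7%, 38.1%, 37.0% and 37.3%, and in LAP+/OC2- libraries 1, 3, 4 and 5 it held 37.7%, 36.7%, 38.2% and 37.6%. In LAP+/OC2+ libraries 1 to 4 it held 34.6%, 34.1%, 34.1% and 33.8%. Adult libraries were all above LAP+ and LAP+/OC2- libraries, which overlapped one another, and LAP+/OC2+ libraries were below all of them. The spread within LAP+/OC2+ was narrow, while the total mitochondrial share of those libraries ran from 38.9% to 78.6%. Of long-gene counts, long gene 3 held 34.79%, 34.28%, 34.25% and 34.02% in LAP+/OC2+ libraries 1 to 4. That is the same order as their total mitochondrial share, and a link between them was not tested.

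Of long-gene counts alone, long gene 3 held 34.3% ± 0.32 in LAP+/OC2+, 37.8% ± 0.61 in LAP+/OC2-, 37.7% ± 0.46 in LAP+ and 42.3% ± 1.40 in adult cells (SD, n = 4 each). The differences of -4.59 percentage points (LAP+ minus adult), -4.55 (LAP+/OC2- minus adult), -7.99 (LAP+/OC2+ minus adult), -3.40 (LAP+/OC2+ minus LAP+) and -3.44 (LAP+/OC2+ minus LAP+/OC2-) each had an exact permutation p of 0.0286 and an adjusted value of 0.0889. These comparisons share libraries and do not count as separate support.

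Long gene 7 showed the reverse order. It took 12.2%, 11.3%, 10.5% and 10.3% of mitochondrial counts in adult libraries 1 to 4 and 15.2%, 15.2%, 14.8% and 14.9% in LAP+ libraries 1 to 4. In LAP+/OC2+ libraries 1 to 4 it took 16.1%, 15.99%, 16.2% and 15.3%. All fetal libraries were above all adult ones, and the LAP+/OC2+ libraries above the LAP+ ones. The counts of long gene 3 were 3.84 ± 0.41 times those of long gene 7 in adult cells, 2.5 ± 0.017 times in LAP+ and 2.54 ± 0.057 times in LAP+/OC2- cells, and 2.15 ± 0.043 times in LAP+/OC2+ cells (SD, n = 4 each), ratios that do not depend on library scaling. The shares of single long genes other than gene 3 were described and not tested.

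Long gene 4 had its highest shares in LAP+ and LAP+/OC2- cells. Its share was 11.6% ± 0.43 in LAP+ and 11.9% ± 0.44 in LAP+/OC2- libraries, 9.90% ± 0.23 in LAP+/OC2+ libraries and 8.49% ± 0.21 in adult libraries (SD, n = 4 each). Long gene 13 was the other way round, at 9.91% ± 0.20 in LAP+/OC2+ and 8.90% ± 0.30 in adult libraries, against 7.84% ± 0.14 in LAP+ and 7.66% ± 0.37 in LAP+/OC2- libraries (SD, n = 4 each). Long genes 9 and 10 were small parts everywhere before transplantation, at 0.551% and 0.805% of mitochondrial counts in adult cells, 0.397% and 0.497% in LAP+/OC2+ cells, 0.234% and 0.339% in LAP+ cells and 0.220% and 0.303% in LAP+/OC2- cells. By group means adult cells thus had the highest shares of both, and LAP+/OC2+ cells stood between adult and the other fetal cells. For long gene 9 the adult libraries (0.480% to 0.659%) and LAP+/OC2+ libraries (0.354% to 0.503%) overlapped.

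**Figure D3:**
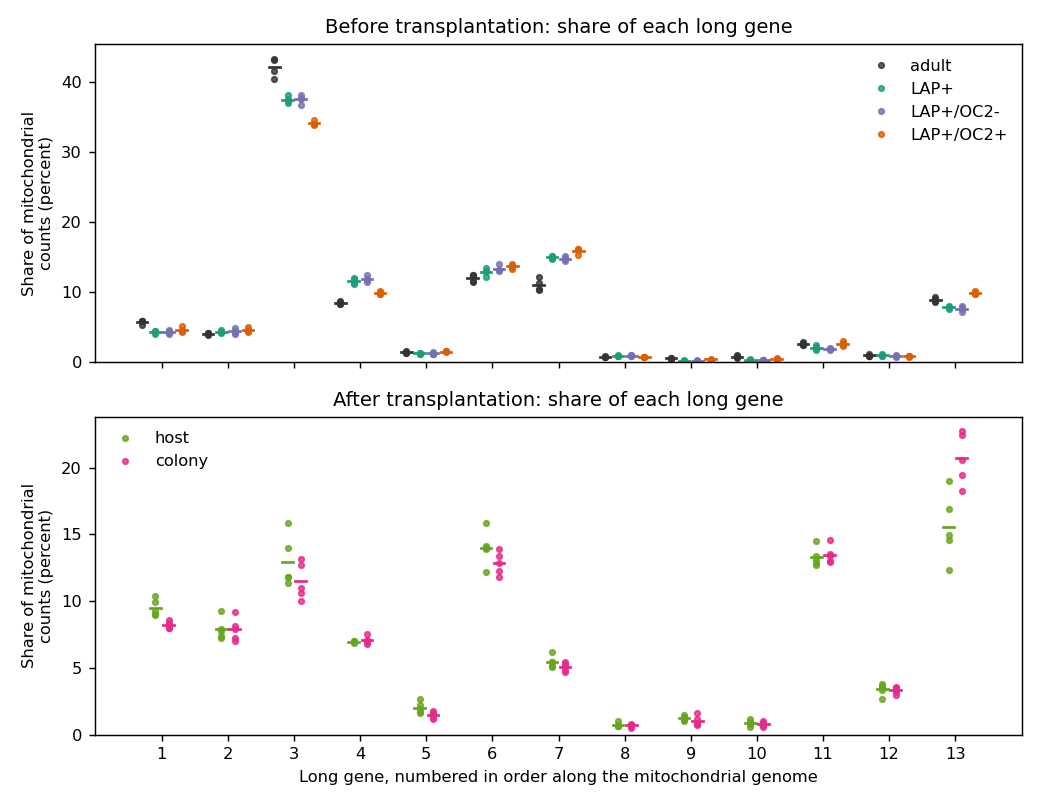
Share of mitochondrial counts held by each long gene (percent) in each library, with bars at the group means, before (upper panel) and after transplantation (lower panel). Long gene 3 leads all groups before transplantation, from 34.1% in LAP+/OC2+ to 42.1% in adult cells, and long gene 13 is highest in the colonies at 20.7%.

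The whole profile of shares was compared between libraries as the percentage of mitochondrial counts that would have to be moved to another feature to turn one profile into the other. The median distance was 2.02 between LAP+ libraries and 1.79 between LAP+ and LAP+/OC2- libraries, so the pair of fetal groups was no further apart than libraries of 1 group. It was 5.55 between LAP+ and LAP+/OC2+, 6.13 between LAP+/OC2- and LAP+/OC2+, 8.46 between LAP+ and adult and 10.1 between LAP+/OC2+ and adult libraries. Adult libraries differed among themselves by a median of 3.01 and LAP+/OC2+ libraries by 1.62.

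Per length, long gene 3 was highest before transplantation in every group, at 248300 ± 152017 CPM per kilobase in LAP+/OC2+, 9503 ± 1115 in LAP+/OC2-, 9448 ± 2401 in LAP+ and 22314 ± 6433 in adult cells (SD, n = 4 each). Long genes 6, 7 and 4 followed it in each of those groups. Genes 6 and 7 changed places between LAP+ libraries, and so did genes 13 and 5, the next in level, between adult and between LAP+/OC2- libraries. Long gene 10 was the lowest long gene per length in all 6 groups, at 473 ± 147 CPM per kilobase in adult and 94.5 ± 19.98 in LAP+ cells (SD, n = 4 each). It spans 1378 nt and follows long gene 9.

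Some of the low values lay next to one another along the genome, though others lay elsewhere. The stretch from 9383 to 11735 held long genes 8, 9 and 10 and short features 15 to 19, or 18.3% of the summed feature length. It held 1.63% ± 0.16 of mitochondrial counts in LAP+/OC2+, 1.48% ± 0.14 in LAP+/OC2-, 1.5% ± 0.11 in LAP+ and 2.11% ± 0.18 in adult cells (SD, n = 4 each). After transplantation it held 2.90% ± 0.24 in host and 2.56% ± 0.61 in colony libraries (SD, n = 5 each). Low features also lay outside it. In adult cells long gene 8 stood at 1776 CPM per kilobase, above long genes 12 (1543) and 11 (1153), which follow the stretch. Long gene 8 was above both in the fetal groups as well. In host and colony libraries long genes 9, 8 and 10 were the lowest long genes. Short feature 13, outside the stretch, summed to 68 counts before transplantation and 66 after it. The stretch was chosen after its values were seen and was not tested.

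**Figure D4:**
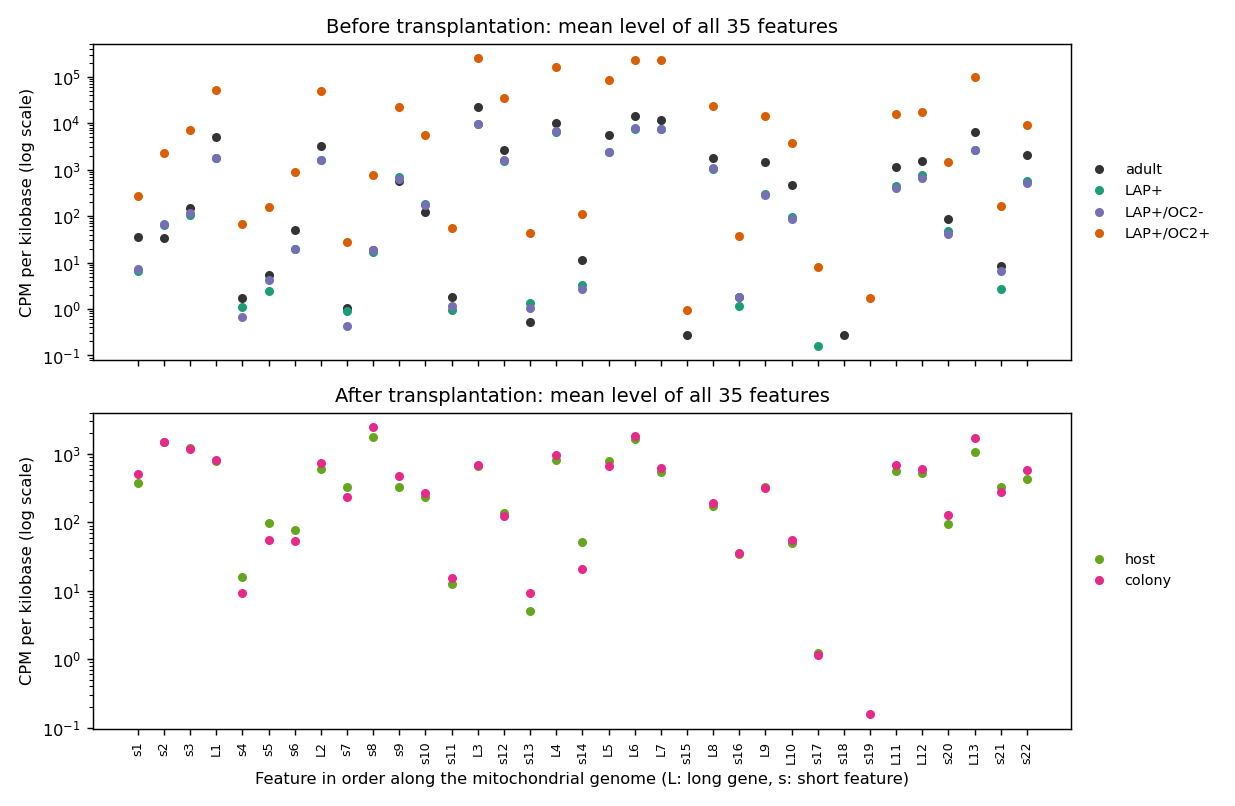
Mean CPM per kilobase (log scale) of the 35 features in order along the mitochondrial genome (L, long gene; s, short feature) for the groups before (upper panel) and after transplantation (lower panel); features without a count in a group have no point. LAP+/OC2+ points lie above the rest in the upper panel except at short feature 18, counted in adult cells alone, and long gene 10 is the lowest long gene in both panels.

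Short features took a small part of mitochondrial counts in cells. They held 0.551% ± 0.042 in LAP+/OC2+, 0.577% ± 0.049 in LAP+/OC2-, 0.580% ± 0.097 in LAP+ and 0.488% ± 0.033 in adult libraries (SD, n = 4 each). LAP+/OC2- minus adult was 0.0893 percentage points, with an exact permutation p of 0.0286 and an adjusted value of 0.0889. Features of such length are about as long as a mature tRNA, and whether their reads came from cut or uncut RNA was not tested.

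Among the short features, those annotated on the minus strand held nearly all counts in cells. Their part of the short-feature counts was 86.4% ± 1.55 in LAP+/OC2+, 92.8% ± 1.77 in LAP+/OC2-, 93.3% ± 1.41 in LAP+ and 94.8% ± 1.10 in adult libraries (SD, n = 4 each). Short feature 12, which shares 3 nt with the end of long gene 3 on the opposite strand, led with 184, 168, 253 and 123 CPM in adult libraries 1 to 4. In LAP+/OC2- libraries 1, 3, 4 and 5 it stood at 68.8, 150, 117 and 117 CPM, and in LAP+/OC2+ libraries 1 to 4 at 3526, 3885, 1641 and 690 CPM. Adult and LAP+/OC2- values of short feature 12 overlapped, while those of LAP+/OC2+ did not overlap with either. It lies next to the feature with the most counts and the strand of the reads is not known here, so its counts and those of long gene 3 cannot be told apart in the shared bases.

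Between LAP+/OC2+ and LAP+/OC2- cells the short features with the largest log2 differences were 4, 3 and 6, at 6.27 (SE 0.75), 5.96 (SE 0.46) and 5.50 (SE 0.45). The smallest were those of short features 22, 16 and 12, at 4.09 (SE 0.39), 4.16 (SE 0.76) and 4.43 (SE 0.49). All had adjusted p under 0.05 by edgeR, the largest of them 0.00013 for short feature 16. Short feature 4 had only 4 counts over the LAP+/OC2- libraries, found in 2 of the 4, and 87 over the LAP+/OC2+ libraries. Short feature 16 had 10 and 46 counts, so the ranks of both rest on few counts. Short features 3 and 4 lie directly before and after long gene 1, which itself differed by 4.90.

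Against adult cells the log2 differences of the short features in LAP+ cells spread from -2.46 to 1.17, wider than those of the long genes. Several rest on few counts. Short features 13 and 14 had 2 and 42 counts over adult libraries and 7 and 17 over LAP+ libraries. By edgeR 5 of 17 were lower and 1 was higher, set against backgrounds of 28.5% and 31.7%. The part that was lower was close to that over all features, so this count does not set the short features apart. The lower ones were short features 1 (log2 difference -2.46), 6 (-1.34), 14 (-1.74), 21 (-1.59) and 22 (-1.84). The call for short feature 21 (edgeR adjusted p = 0.035) was lost under 6 of the alternatives, and those for 6 and 14 under 1 each. In LAP+/OC2- cells against the same adult libraries short feature 21 was not called (-0.40, edgeR adjusted p = 0.55), while short features 1, 6, 14 and 22 were called lower. Short feature 1 had 3, 69, 63 and 8 counts in adult libraries 1 to 4, so its adult level was uneven. Short feature 22, the last on the genome, stood at 121, 126, 199 and 108 CPM in adult libraries 1 to 4 and at 48.9, 26.8, 43.1 and 36.2 CPM in LAP+ libraries 1 to 4. Its groups did not overlap (SE 0.36, edgeR adjusted p = 0.00030).

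The one short feature that was higher in LAP+ cells was number 2, at 1026 to 1093, which lies between the stretches without a feature. It stood at 2.17, 2.22, 2.77 and 2.16 CPM in adult libraries 1 to 4 and at 5.43, 4.10, 3.97 and 4.20 CPM in LAP+ libraries 1 to 4. All LAP+ values were above all adult values, with a log2 difference of 0.92 (SE 0.33, edgeR adjusted p = 0.025). That call was lost under 4 of the alternatives, and the feature summed to only 137 counts over adult libraries. In LAP+/OC2- cells it was higher than in the same adult libraries as well, by 0.97 (SE 0.33, adjusted p = 0.019). In LAP+/OC2+ libraries 1 to 4 it reached 259, 189, 101 and 66.7 CPM. Short features 9 and 10, on the minus strand, had positive log2 differences of 0.29 and 0.54 between LAP+ and adult cells that did not pass (adjusted p = 0.45 and 0.20), and without TMM scaling both were called higher.

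After transplantation the mitochondrial share was low in host and colony alike. In animals 242, 243, 246, 248 and 249 the host share was 0.570%, 0.614%, 0.696%, 0.997% and 0.738%, and the colony share 1.26%, 0.906%, 0.661%, 0.980% and 1.42%. The colony was above the host of the same animal in 3 of 5, the exceptions being animals 246 and 248. Colonies had a mean of 1.05% ± 0.30 and host tissue one of 0.723% ± 0.167 (SD, n = 5 each), a difference of 0.324 percentage points. The exact permutation p over the 5 pairs was 0.25, where 5 pairs cannot give less than 0.0625.

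Of the single features only long gene 13 was called between colony and host in the edgeR test. Its log2 difference was 0.68, higher in colonies (SE 0.15, edgeR adjusted p = 0.023, with the animal as a block), and the only 1 of 31 tested features called, where 0.565% of all 22303 features tested were called higher and 1.17% in either direction. In host tissue of animals 242, 243, 246, 248 and 249 it stood at 1104, 872, 1217, 1670 and 1220 CPM and in their colonies at 2519, 1634, 1430, 1795 and 2415 CPM. The colony value was the higher one in 5 of 5 animals, by a wide margin in 242, 243 and 249 and a narrow one in 246 and 248. DESeq2 gave an adjusted p of 0.078 for this gene. The call was also lost with a stricter filter on low counts (0.074), without the block (0.21) and without TMM scaling (0.19). Leaving out 1 animal at a time gave between 0 and 5 called mitochondrial features. There were 0 without animal 242, 243 or 249, where 5, 130 and 0 features of the whole table were called. There were 3 without animal 248 and 5 without animal 246, where 157 and 2683 of the whole table were called. With all animals 262 features were called, so leaving out animal 248 gave more members and fewer features. Counts of members thus did not always move with those over all features.

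The other long genes moved little. Log2 differences ran from -0.19 (long gene 5) to 0.29 (long gene 4), and 11 of the 13 long genes were positive with long gene 13 included. The median of the 13 was 0.16, beside 0.11 over all features tested, which thus leaned positive as well. The number of long genes with an unadjusted p under 0.05 was 2, where 4237 of all 22303 features tested had such a p.

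The share of long gene 13 within mitochondrial counts gave the same order without any scaling of libraries. It took 16.9%, 12.3%, 18.97%, 14.6% and 14.9% in host tissue and 22.7%, 18.3%, 22.4%, 19.5% and 20.6% in colonies of animals 242, 243, 246, 248 and 249. The share was higher in the colony of 5 of 5 animals, by 5.16 ± 1.04 percentage points (mean ± SD of the differences, n = 5). Host and colony values overlapped between animals, since the host of animal 246 was above the colony of animal 243. Long gene 3 held 14.02%, 15.8%, 11.8%, 11.8% and 11.3% in the hosts and 10.97%, 13.1%, 12.7%, 10.7% and 9.99% in the colonies, lower in 4 of 5 animals. As a part of long-gene counts it was lower in colonies by 1.59 percentage points on average, with an exact permutation p of 0.125.

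Long gene 1 took 9.0%, 10.4%, 9.03%, 9.94% and 9.28% of mitochondrial counts in hosts and 8.19%, 8.58%, 8.01%, 7.99% and 8.36% in colonies of the same animals. All 5 colony values lay below all 5 host values. Long genes 5, 6 and 7 also had a lower share in the colony in 5 of 5 animals, by 0.549, 1.16 and 0.380 percentage points on average. A share that is higher for one gene leaves less for the others, and the log2 differences of long genes 1, 5, 6 and 7 were 0.05, -0.19, 0.14 and 0.16, none of which passed the test.

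**Figure D5:**
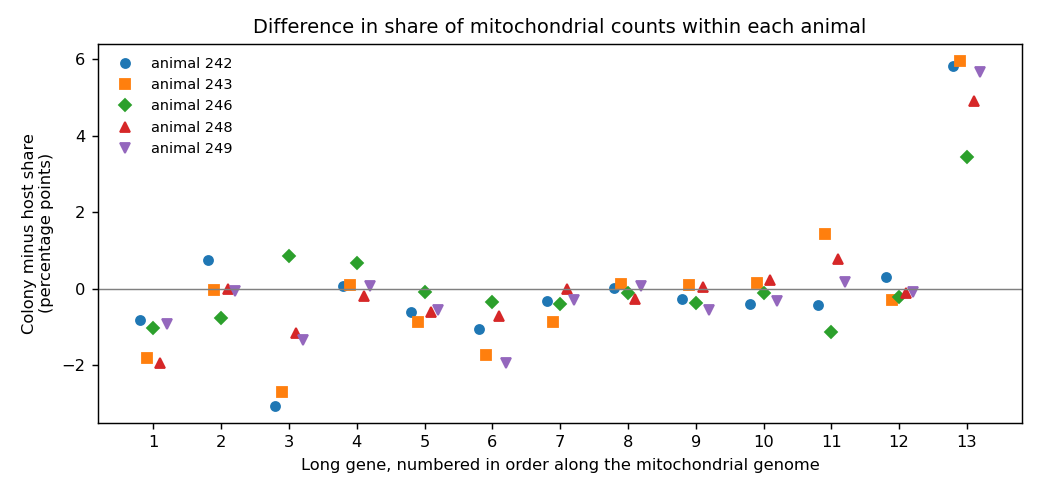
Colony share minus host share of mitochondrial counts (percentage points) for each long gene, 1 point per animal. Long gene 13 lies above 0 in all 5 animals, with a mean of 5.16, and long gene 1 below 0 in all 5, with a mean of -1.30.

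Captured tissue had another order of features than cells, a difference that cannot be told apart from that of kit, material and capture. Long gene 6 was highest per length in host tissue (1643 ± 498 CPM per kilobase) and in colonies (1805 ± 490), followed by long gene 13 (1064 ± 254 and 1714 ± 423; SD, n = 5 each). These genes kept that order in every host library and changed places in some colony libraries. Long gene 11, the longest, took 13.3% ± 0.71 of mitochondrial counts in hosts and 13.5% ± 0.64 in colonies (SD, n = 5 each). Short features took 5.95% ± 1.19 and 5.78% ± 0.82 of mitochondrial counts, and those on the minus strand 44.1% ± 7.45 and 51.1% ± 2.55 of the short-feature counts.

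Short feature 8, on the minus strand, led the short features in captured tissue and is named here after its values were seen. It held 1.49% ± 0.47 of mitochondrial counts in hosts and 1.76% ± 0.43 in colonies (SD, n = 5 each), with overlapping values. Its log2 difference between colony and host was 0.54 (SE 0.17, edgeR adjusted p = 0.11), and DESeq2 called this feature and not long gene 13. Short feature 2 held 1.27% ± 0.20 in hosts and 1.08% ± 0.18 in colonies (SD, n = 5 each), with a log2 difference of 0.03. None of the 18 short features passed the test between colony and host, and 4 had an unadjusted p under 0.05, where 4237 of all 22303 features tested had.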

How the data were processed

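The authors' deposited files hold raw counts per feature with coordinates, strand and length, per the file headers. Tools named, per the submitters' processing notes, are STAR 2.5.2b, featureCounts from Subread 1.5.2, Trimmomatic 0.36 and bcl2fastq 2.17, listed without roles. No genome build, annotation or strand setting is given in the sources used here. Groups come from sample titles. The members and lists were chosen with earlier results of these data known. Lists of markers and nuclear pathway genes could not be applied, because identifiers match no name in the RefSeq table of 47357 genes.

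All features were tested with edgeR 4.0.16 in R 4.3.3 (TMM, filterByExpr, robust quasi-likelihood F test, Benjamini-Hochberg over all features tested, threshold 0.05): 16 libraries in 1 fit before transplantation, 10 with an animal block after it. The script was tested on simulated data. Host and colony share replicate numbers, taken as animals although no label names one, and the block rests on that reading. The correlation of their deviations ran from -0.207 to 0.289 over the 5 numbers, with only 2 above 0.1. Summary values were tested by exact permutation (scipy 1.17.1). Named were all long genes and, of the short features, the 6 with the highest level, the 3 largest and 3 smallest differences between LAP+/OC2+ and LAP+/OC2-, and those not tested. Alternatives were DESeq2 1.42.0, other scalings and filters, fits of 2 groups, blocks and leaving out libraries. All 44 replicate pairs differed by more than sampling noise (chi-square over its degrees of freedom 4.91 to 255). Where replicates before transplantation do not come from separate animals, p-values measure only the spread between these libraries.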

Additional observations from a re-analysis of the deposited data

Results flagged for a closer look

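In 4 of 102 groups of libraries checked, 1 library stood apart from the rest by Dixon's ratio, where chance gives about 1 in 20 groups. Among adult libraries, number 2 had the lowest share of long gene 1 (5.373% of mitochondrial counts) and the highest of long gene 12 (1.114%). LAP+/OC2+ library 4, the one with the lowest mitochondrial total of its group, had the highest share of long gene 9 (0.503%). In host tissue, animal 248 had the highest share of long gene 8 (1.006%).

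The difference in share went in opposite directions in LAP+ minus adult cells and in colony minus host for 2 of 17 values checked, with every library or animal on its side. Long gene 7 was higher in LAP+ than in adult cells by 3.97 percentage points and lower in colony than in host, at -0.38. Long gene 13 was lower in LAP+ than in adult cells, at -1.06 percentage points, and higher in colony than in host by 5.16. The other fetal fractions did not all follow LAP+. Long gene 13 was higher in every LAP+/OC2+ library than in every adult one, the direction of colony minus host. Long gene 6 was higher in every LAP+/OC2+ and LAP+/OC2- library than in every adult one and lower in colony than in host, while LAP+ and adult values overlapped. These directions were not tested, and library kit and material differ between the stages.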

How the results depend on the processing

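In each comparison with LAP+/OC2+ every feature that passed the filter was called, 26 to 31 of them under the alternatives with one, and 32 of 35 without one. The single call between colony and host (long gene 13) did not: 3 features were called without a filter on low counts (751 over all features), and 0 with a stricter filter (6), with the filter by group (6), with no replicate block (0) and without TMM scaling (225), against 262 over all features in the reported test. The filter by group and the fit without TMM were chosen after seeing the data. Leaving out 1 animal gave 0 to 5 (0 to 2683 over all features). The cause was not tested. Colony minus host turned to 0.260 percentage points for the share of short features taken per length, to -0.0878 for the share of the minus strand in long genes only, and to log2 differences of 0.065 for long gene 5 and 0.199 for long gene 9 without TMM scaling. Leaving out 1 animal at a time, log2 differences ran from -0.0898 to 0.203 for long gene 1, from -0.0131 to 0.205 for long gene 10 and from -0.198 to 0.0678 for long gene 9, and the share of short features from -0.312 to 0.0114. Per length, the share of the minus strand turned to 0.348 (LAP+/OC2- minus adult) and the part of long gene 3 to -0.0275 (LAP+/OC2- minus LAP+). Leaving out 1 library at a time, LAP+/OC2- minus LAP+ ran from -0.428 to 0.36 for the mitochondrial share, from -0.0374 to 0.0343 for that of short features and from -0.173 to 0.318 for the part of long gene 3. LAP+/OC2+ minus LAP+ ran from -0.0633 to 0.00839 for short features, and LAP+/OC2- minus adult from -0.0674 to 0.0129 for the minus strand. With the replicate number as a block, 15 calls were made between LAP+ and adult cells in place of 16 (over all features 7789 in place of 8330). Between LAP+/OC2- and adult cells there were 11 in place of 15 (7132 in place of 8192). Equal numbers did not deviate together before transplantation (r from -0.428 to 0.198 over 21 pairs). Some unequal numbers did. LAP+ libraries 1, 2, 3 and 4 went with LAP+/OC2- libraries 3, 1, 4 and 5 (r = 0.572, 0.664, 0.413 and 0.363). These pairs were picked after their values were seen. Neither the main fit nor this block took them into account, and whether such libraries share an origin is not stated. With 3 against 4 libraries exact p-values cannot go below 0.0571, and with 4 pairs below 0.125.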
